A study of Rattus norvegicus with 99 samples.

Results

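Genes of the mesothelium and epicardium were followed through whole heart tissue of rats. The set holds 7 genes, chosen by symbol with earlier results of these data known: Wt1, Msln, Upk3b, Krt8, Krt18, Krt19 and Aldh1a2. Of the 17337 genes in the deposited table, 6 were members. Upk3b was not analysed here. All 6 passed the filter on low counts in the fit of all libraries, in which 11924 genes were tested.

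The outer surface of the heart is covered by the epicardium, a single layer of mesothelial cells that also lines the pericardial cavity. It covers the free walls of both ventricles, whereas the interventricular septum lies between them and has the layer at most along its outer edge. Mesothelial cells are known for a surface glycoprotein, mesothelin (Msln), for a membrane plaque protein, uroplakin 3b (Upk3b), and for simple epithelial keratins. The type II keratin Krt8 forms filaments with the type I keratins Krt18 and Krt19. The transcription factor Wt1 drives the epicardial programme in the embryo and is also active in endothelial cells of the adult heart. Aldh1a2 makes retinoic acid from retinaldehyde, a function of the epicardium.

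Hearts came from 33 male F1 rats (Wistar Kyoto mother, Lewis father), and the left ventricle (LV), the septum (Spt) and the right ventricle (RV) of each gave 1 library of polyadenylated RNA, 99 in all. A titanium clip that does not constrict was placed around the pulmonary artery (PAB, load on the RV) or the aorta (AOB, load on the LV), and sham-operated rats were the controls. At the compensated stage (H), 11 weeks old by the labels and 7 weeks after surgery, Sham-H, PAB-H and AOB-H held 7 animals each. The failure stage held PAB-F (n = 3) with its control Sham-RF (n = 2), aged 27 weeks and operated on 21 weeks before, and AOB-F (n = 4) with its control Sham-LF (n = 3), aged 30 weeks and operated on 24 weeks before, and the 7 conditions in 3 chambers made 21 groups. The labels name no transgene or deletion. The study's text gives other ages than the labels.

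Total counts were 12.1 to 24.2 M (mega) per library (median 17.4 M). In 3 of the 33 animals (Sham-H replicate 6, PAB-H replicate 2 and AOB-H replicate 1) the LV and RV libraries differed from each other in the opposite direction to the other 30, over 50 genes chosen without the members. Their libraries keep their labels here, and values of the tests, correlations and level orders without these animals are given. The wall mean of an animal does not depend on which of its 2 wall libraries is which. The fit of both walls against Spt averages separate LV and RV groups, so its values can change with such an exchange. The library numbers of the labels form 3 runs, called library series. LV and RV of an animal always shared a series, but in 24 of 33 animals Spt belonged to another series than a wall, so that a difference between walls and Spt cannot be fully told apart from one between series. For that reason differences of the members, listed genes and markers from Spt were also fitted in the 9 animals whose 3 libraries lie in 1 series, 3 of each compensated condition, with the animal as a block. In bulk tissue, fewer cells of a type and less RNA per cell cannot be told apart.

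Promoter sequences are shown for Krt8 and Krt18, filament partners whose levels were correlated, and for Wt1, whose difference between chambers was opposite to the rest. Promoter entries in RefSeq (assembly GRCr8) matched 5 of the 7 members, and each run below is the 250 bases before the gene's start, 5′ to 3′ on the gene's strand. Capitals mark matches to the motifs searched on both strands, the GC box GGGCGG, the TATA box TATAAA, the AP-1 site TGANTCA, the retinoic acid receptor motif AGGTCA and the TEAD site GGAATG. No coordinate here is in the build the authors mapped to.
Krt8, chr7:135010340-135010589, minus strand: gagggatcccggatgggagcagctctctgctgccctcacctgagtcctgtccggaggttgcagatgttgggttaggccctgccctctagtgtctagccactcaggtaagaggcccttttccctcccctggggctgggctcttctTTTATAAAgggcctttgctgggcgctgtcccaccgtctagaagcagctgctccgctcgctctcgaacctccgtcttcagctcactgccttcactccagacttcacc
Krt18, chr7:135035918-135036167, plus strand: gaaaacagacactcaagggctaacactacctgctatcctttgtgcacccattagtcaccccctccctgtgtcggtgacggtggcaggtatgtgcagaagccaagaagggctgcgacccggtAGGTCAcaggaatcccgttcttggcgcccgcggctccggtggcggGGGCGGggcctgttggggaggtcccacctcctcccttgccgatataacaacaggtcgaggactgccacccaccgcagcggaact
Wt1, chr3:112021759-112022008, plus strand: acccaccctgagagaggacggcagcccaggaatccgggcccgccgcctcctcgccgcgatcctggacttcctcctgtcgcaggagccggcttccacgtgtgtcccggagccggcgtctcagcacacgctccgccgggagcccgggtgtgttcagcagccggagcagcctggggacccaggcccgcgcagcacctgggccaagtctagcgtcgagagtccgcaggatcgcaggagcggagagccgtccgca
The Krt8 run holds 2 overlapping TATA box matches, 1 on each strand, and 12.9% of 33469 promoters of this length hold at least 1. In the Krt18 run a retinoic acid receptor motif (14.1% of promoters) and a GC box (30.5%) were found. The Wt1 run has none of the 5 motifs, and neither has that of Aldh1a2. The runs differ in base composition, with 60.0% G and C in Krt8, 62.0% in Krt18 and 71.6% in Wt1, against a median of 51.2% over all promoters. A match is a string of letters and was not tested as a binding site. Krt8 and Krt18 lie near each other on the same chromosome and are read from opposite strands.

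The first question was where in the heart the genes were found. Msln, Krt8, Krt18, Krt19 and Aldh1a2 were higher in the free walls than in Spt, and Wt1 was lower. The level of a gene is its CPM, the count after scaling all libraries to the same total with TMM, and fold changes are log2 values ± SE from edgeR's quasi-likelihood test with Benjamini-Hochberg adjustment over all genes tested; a gene is called at an adjusted p under 0.05. In the mean of LV and RV minus Spt, averaged over the 7 conditions, all 6 members were called, 5 higher and 1 lower. Of all genes tested, 13.7% were called in this comparison, 7.71% as higher and 5.96% as lower. Because the members were chosen with earlier results of these data known, their number of calls is a description and not an independent test.

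**Figure D1:**
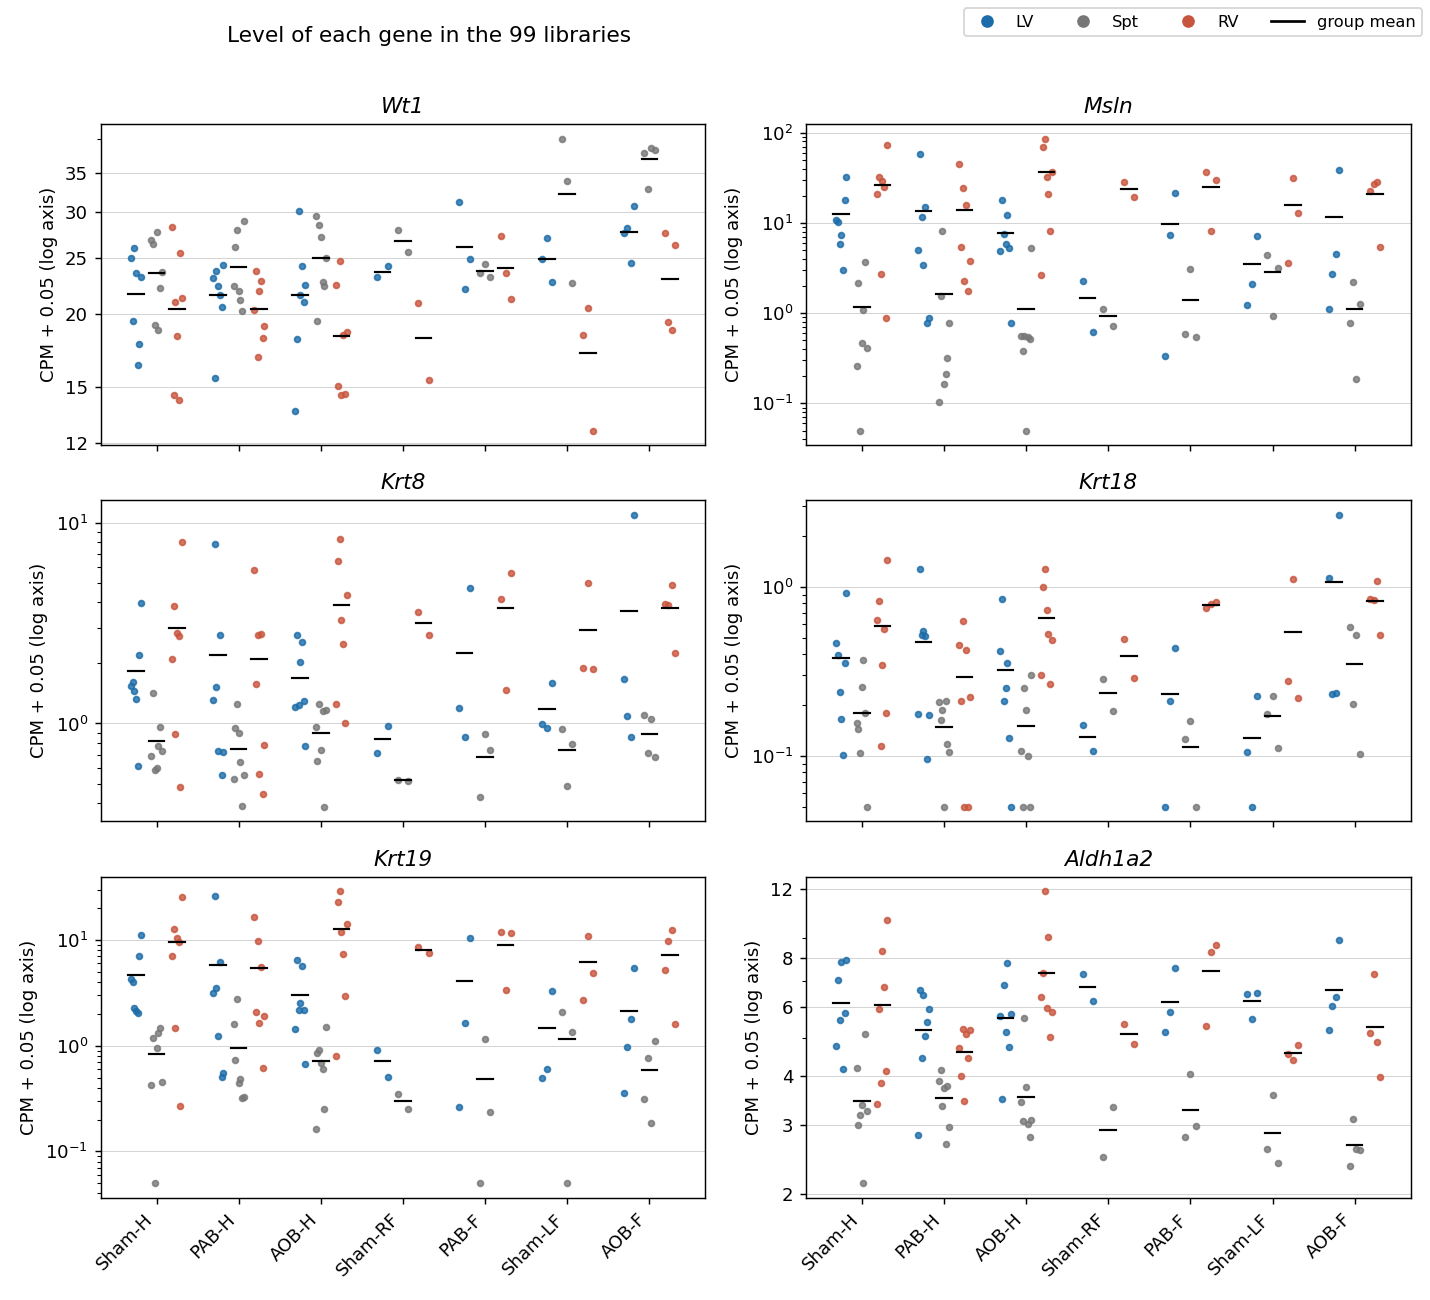
Level of the 6 genes in every library, as CPM + 0.05 on a log axis, with a panel for each gene. Points are libraries of LV (blue), Spt (grey) and RV (red) by condition, and black bars are group means of the CPM. In Msln, Krt8 and Krt19 the bar of RV lies above that of Spt in 7 of 7 conditions, though the points overlap in some, while in Wt1 it lies above that of Spt in 1 of 7.

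Msln, the mesothelial surface glycoprotein, showed the widest range. Its median over 33 animals was 0.534 CPM in Spt (0 to 8.08), 5.76 CPM in LV (0.286 to 57.4) and 22.3 CPM in RV (0.823 to 86.1). Spt was thus low in nearly every animal, and the walls reached from the level of Spt to far above it. Among Sham-H animals the lowest, median and highest values were 0, 0.414 and 3.65 CPM in Spt, 2.99, 10.3 and 32.3 CPM in LV and 0.823, 25.0 and 72.3 CPM in RV. In Sham-RF the 2 animals had 1.07 and 0.671 CPM in Spt, 2.23 and 0.576 CPM in LV, and 28.5 and 19.2 CPM in RV. Here RV stood clear of the other chambers, whereas LV and Spt overlapped. RV and Spt were without overlap in 3 of the 7 conditions, and how often other genes showed this was not counted. In Sham-LF the values were 4.39, 0.880 and 3.15 CPM in Spt, 1.17, 2.08 and 7.13 CPM in LV, and 3.51, 31.1 and 12.8 CPM in RV, so that the chambers overlapped. Over all conditions, Msln was higher in the walls by 3.19 ± 0.48 on the log2 scale, 9.15-fold (adjusted p = 5.7e-07, edgeR). The mean of both walls exceeded Spt in 32 of 33 animals.

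Krt19, a type I keratin of simple epithelia, followed Msln closely. Its median was 0.551 CPM in Spt (0 to 2.71), 2.14 CPM in LV (0.214 to 25.8) and 7.48 CPM in RV (0.217 to 29.0). In Sham-H all 7 LV libraries (2.01 to 11.1 CPM) lay above all 7 Spt libraries (0 to 1.43 CPM), but the RV libraries (0.217 to 25.6 CPM) overlapped them. LV and Spt were without overlap in 2 of the 7 conditions, and how often other genes showed this was not counted. The walls were higher by 2.82 ± 0.42, 7.08-fold (adjusted p = 5.3e-07, edgeR), in 32 of 33 animals.

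Krt8, the type II partner in these filaments, had medians of 0.686 CPM in Spt (0.335 to 1.37), 1.26 CPM in LV (0.507 to 10.9) and 2.70 CPM in RV (0.395 to 8.21). Unlike Msln and Krt19 it was detected in every library, with 5 or more reads each. It was higher in the walls by 1.70 ± 0.27, 3.25-fold (adjusted p = 1.8e-06, edgeR), in 32 of 33 animals. Krt18, the other type I partner, was scarce: 18 of 33 LV, 27 of 33 Spt and 7 of 33 RV libraries held 3 reads or fewer, and 5 of the 21 groups had no library above that. A count of 0 allows up to 3 reads, 0.172 CPM at the median depth of Spt, for counting error alone. The fitted rise in the walls was 1.39 ± 0.36 (adjusted p = 0.0044, edgeR), and the wall mean exceeded Spt in 29 of 33 animals. Krt18 did not pass the filter on low counts in Spt alone, where its highest level was 0.528 CPM. It entered this test through its wall libraries, so its call is not independent of the filter. Krt18 was no longer called with the library series as a covariate (1.07 ± 0.44, adjusted p = 0.12), without Sham-RF replicate 1 (adjusted p = 0.059) or without Sham-LF replicate 3 (adjusted p = 0.053).

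Aldh1a2, the retinoic acid synthesising enzyme, differed less but more evenly. The median was 3.05 CPM in Spt (2.08 to 5.56), 5.78 CPM in LV (2.77 to 8.88) and 5.20 CPM in RV (3.34 to 11.8). In 4 of the 7 conditions, the failure stage groups Sham-RF, PAB-F, Sham-LF and AOB-F, every wall library lay above every Spt library. The smallest of these, Sham-RF, had 7.26 and 6.16 CPM in LV and 5.37 and 4.79 CPM in RV against 2.43 and 3.29 CPM in Spt. In these groups the walls all belong to another library series than Spt, so chamber and series cannot be told apart there. Walls and Spt overlapped in the compensated conditions, and how often other genes showed no overlap was not counted. Aldh1a2 was higher in the walls by 0.91 ± 0.09, 1.88-fold (adjusted p = 1.1e-12, edgeR), in 30 of 33 animals.

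Wt1 went the other way. Its median was 25.5 CPM in Spt (18.8 to 40.0), 23.1 CPM in LV (13.6 to 31.1) and 20.3 CPM in RV (12.6 to 28.1), with wide overlap between the chambers. In the 4 AOB-F animals Spt held 37.9, 32.7, 38.6 and 38.2 CPM, above their LV with 27.5, 28.0, 24.4 and 30.7 CPM and their RV with 27.5, 19.4, 18.7 and 26.2 CPM. In Sham-LF the 3 Spt libraries had 40.0, 33.8 and 22.6 CPM, and the RV libraries 18.3, 20.5 and 12.6 CPM. In both conditions the walls belong to another library series than Spt. In the compensated conditions the medians of LV and Spt were closer, 23.1 and 23.6 CPM in Sham-H, 22.3 and 22.3 in PAB-H and 21.5 and 24.9 in AOB-H. Those of RV were 21.0, 20.3 and 18.3 CPM. In PAB-F the median of LV lay above that of Spt (24.8 and 23.5 CPM). Over all conditions the walls were lower than Spt, with a log2 fold change of -0.31 ± 0.06 (adjusted p = 7.4e-05, edgeR). Both walls lay below Spt in 21 of 33 animals, and the wall mean lay above Spt in 4.

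**Figure D2:**
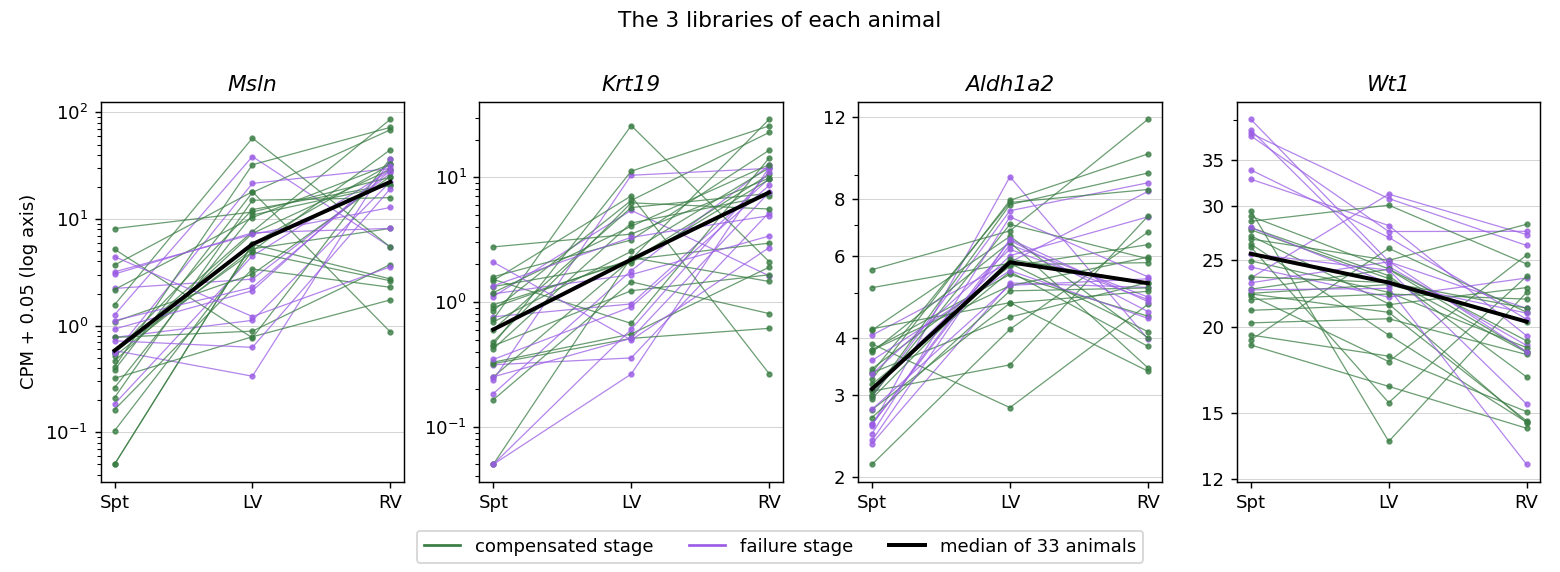
Msln, Krt19, Aldh1a2 and Wt1 in the 3 libraries of each animal, as CPM + 0.05 on a log axis. Each thin line joins Spt, LV and RV of 1 animal, green for the compensated and violet for the failure stage, and the black line joins the medians of 33 animals. Lines rise from Spt to the walls for the first 3 genes and mostly fall for Wt1.

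The direction was shared by the members within single animals. Msln, Krt8, Krt19 and Aldh1a2 were all higher in the wall mean than in Spt in 28 of 33 animals, and with Krt18 included in 24. In the 9 animals with 3 libraries in 1 series, the wall mean exceeded Spt in 9 for Msln, Krt8 and Krt19, in 8 for Aldh1a2, in 6 for Krt18 and in 1 for Wt1. The fit of these 9 animals, with the animal as a block, gave 3.30 ± 0.84 for Msln (adjusted p = 0.063, edgeR) and 2.80 ± 0.68 for Krt19 (adjusted p = 0.058). In the same fit Krt8 differed by 1.41 ± 0.40 (adjusted p = 0.089), Krt18 by 1.35 ± 0.60 (adjusted p = 0.23) and Wt1 by -0.18 ± 0.07 (adjusted p = 0.18), and Aldh1a2 by 0.90 ± 0.15 (adjusted p = 0.010), which alone was called. The sizes for Msln, Krt19, Krt18 and Aldh1a2 were thus close to those over all animals, that of Wt1 was smaller, and 106 genes (0.918%) were called in this fit in place of 1630. All 6 members had an unadjusted p under 0.05 in it. Without the 3 animals of opposite wall difference the 6 members were called, with 3.22 ± 0.45 for Msln and -0.30 ± 0.06 for Wt1.

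Sham animals alone gave smaller numbers of calls. With 2.23% of all genes called, Wt1 was lower (-0.39 ± 0.10, adjusted p = 0.018), and Msln (2.71 ± 0.78, adjusted p = 0.044), Krt19 (2.54 ± 0.73, adjusted p = 0.041) and Aldh1a2 (0.93 ± 0.15, adjusted p = 7.7e-05) were higher by the same test. Krt8 differed by 1.53 ± 0.47 (adjusted p = 0.061, edgeR) and Krt18 by 0.78 ± 0.63 (adjusted p = 0.70), and neither was called. With the animal as a block Krt8 passed (adjusted p = 0.026). With the library series as a covariate, Msln (adjusted p = 0.062) and Krt19 (adjusted p = 0.088) were not called in shams. The calls in shams rested on few animals. Without Sham-RF replicate 1, or without replicate 2, Aldh1a2 alone was called, and without Sham-H replicate 1, 4 or 7 or Sham-LF replicate 2 or 3 the number was 2. In the 3 Sham-H animals with 1 series 0 members were called by edgeR, though 5 had an unadjusted p under 0.05, with 3.59 ± 1.31 for Msln and -0.14 ± 0.12 for Wt1. Without the 3 animals of opposite wall difference 5 members were called, Krt8 among them (adjusted p = 0.028).

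Each wall was then set against Spt on its own. In RV minus Spt, where 23.4% of all genes were called, all 6 members were called: Msln was 16.4-fold, Krt19 12.6-fold, Krt8 4.37-fold, Krt18 3.72-fold and Aldh1a2 1.82-fold higher, and Wt1 was lower (log2 fold change -0.43 ± 0.07). In LV minus Spt, with 9.37% of genes called, Msln (2.35 ± 0.50), Krt19 (1.99 ± 0.47), Krt8 (1.27 ± 0.30) and Aldh1a2 (0.96 ± 0.10) were higher on the log2 scale. Krt18 (0.88 ± 0.46, adjusted p = 0.26, edgeR) and Wt1 (-0.19 ± 0.07, adjusted p = 0.071) were not called there, though Wt1 passed with the animal as a block (adjusted p = 0.026). The calls of Msln and Krt19 in LV minus Spt were lost without Sham-RF replicate 1 (adjusted p = 0.079 and 0.054). In the 9 animals with 1 series, 3 members were called in RV minus Spt by edgeR, Msln (3.84 ± 0.89), Krt19 (3.19 ± 0.72) and Aldh1a2 (0.94 ± 0.16). In LV minus Spt of these animals 0 were called and 4 had an unadjusted p under 0.05, with 2.76 ± 0.92 for Msln and 0.87 ± 0.16 for Aldh1a2. Leaving out the 3 animals of opposite wall difference changed no call in either comparison, with 4.19 ± 0.49 for Msln in RV minus Spt and 2.25 ± 0.48 in LV minus Spt.

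RV and LV also differed from each other. In this comparison, in which both walls of an animal share a library series, 28.4% of all genes were called. RV was above LV for Msln (1.68 ± 0.43, 3.21-fold, adjusted p = 0.0020, edgeR), Krt19 (1.66 ± 0.38, 3.16-fold, adjusted p = 0.00060), Krt18 (1.02 ± 0.35, adjusted p = 0.021) and Krt8 (0.86 ± 0.26, adjusted p = 0.010). Wt1 was below LV in RV (-0.24 ± 0.07, adjusted p = 0.0061), and Aldh1a2 showed a difference of -0.10 ± 0.10 (95% interval -0.29 to 0.09, adjusted p = 0.43). For the enzyme a difference of more than 0.29 on the log2 scale lay outside the interval. By animal, RV exceeded LV in 27 of 33 for Msln and Krt19, 25 for Krt8, 23 for Krt18, 17 for Aldh1a2 and 7 for Wt1. Of the 6 animals with more Msln in LV, 3 were those whose walls differed against their labels, and the others were PAB-H replicate 4, Sham-H replicate 3 and AOB-F replicate 4. Without the 3 former animals the difference was 1.93 ± 0.41 for Msln and 1.92 ± 0.34 for Krt19, and the same number of members, 5, was called. Without Sham-RF replicate 1 the number was 3, with Krt8 (adjusted p = 0.051) and Krt18 (adjusted p = 0.082) lost, and Krt18 was also lost without Sham-RF replicate 2 or Sham-LF replicate 2. In the 9 animals with 1 series 0 members were called and 0 had an unadjusted p under 0.05 by edgeR, with 1.08 ± 0.69 for Msln and 0.78 ± 0.57 for Krt19.

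**Figure D3:**
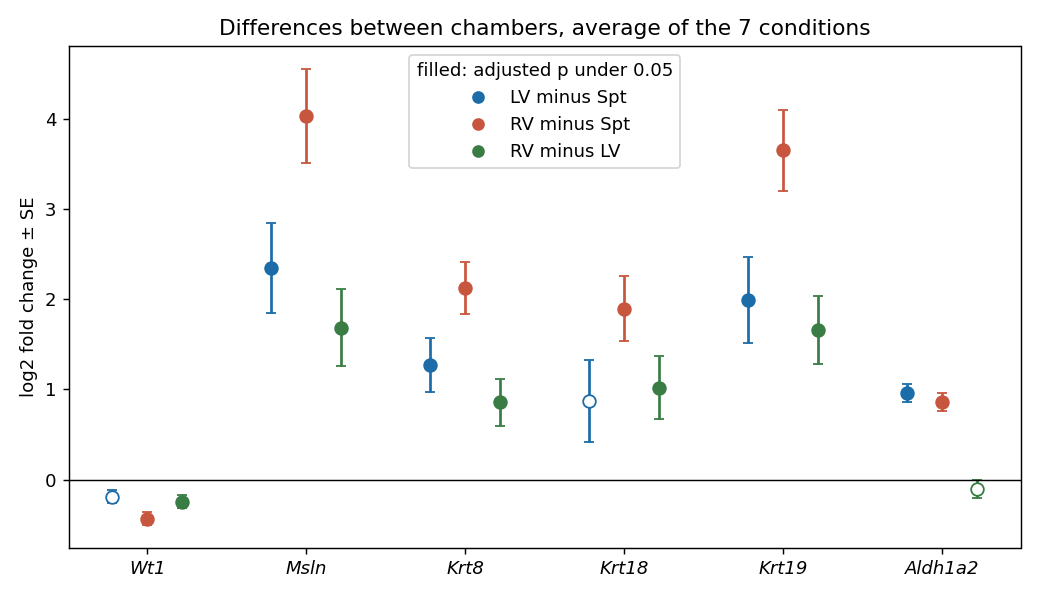
Log2 fold change ± SE between chambers for each gene, averaged over the 7 conditions, for LV minus Spt (blue), RV minus Spt (red) and RV minus LV (green). Filled points have an adjusted p under 0.05. Msln and Krt19 show the largest differences from Spt, Aldh1a2 differs from Spt about equally in both walls, and Wt1 lies below 0 throughout.

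The order of the genes by level per gene length (FPKM) changed with the chamber. In Spt, Wt1 led with a median of 9.64 FPKM, followed by Aldh1a2 (1.35), Krt8 (0.407), Krt19 (0.397), Msln (0.251) and Krt18 (0.0810). Wt1 exceeded Aldh1a2 and Aldh1a2 exceeded Krt8 in 33 of 33 Spt libraries, whereas Krt8 exceeded Krt19 in 20 and Krt19 exceeded Msln in 14. In RV, Msln led with a median of 10.5 FPKM, before Wt1 (7.72), Krt19 (5.36), Aldh1a2 (2.29), Krt8 (1.61) and Krt18 (0.341). Msln exceeded Wt1 in 20 of 33 RV libraries, so these leading positions were not separated. LV lay between, with Wt1 at 8.79, Msln at 2.73, Aldh1a2 at 2.55, Krt19 at 1.55, Krt8 at 0.754 and Krt18 at 0.133 FPKM. Msln exceeded Aldh1a2 in 18 of 33 LV libraries. Between Krt8 and Krt18 the ratio of summed FPKM stayed near the same value, 4.39 in LV, 4.54 in Spt and 4.92 in RV. Between Krt19 and Krt18 it went from 5.32 in Spt to 9.86 in LV and 16.5 in RV. Without the 3 animals of opposite wall difference the order was the same in each chamber, and Msln exceeded Wt1 in 20 of 30 RV libraries.

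The members were next compared within a chamber, to see whether animals of the same condition that were high in one were high in others. Deviations of log2 CPM from the condition mean were correlated over the 33 libraries of a chamber, 45 pairs in all, with a permutation test (100000 resamples within condition, two-sided) and adjustment over the 45. A positive correlation was called in 19 pairs, 6 in LV, 3 in Spt and 10 in RV, and a negative one in 0. Both values of a point come from 1 library, so they share its piece of tissue and its depth. The 3 pairs in Spt joined Msln, Krt8 and Krt19 with each other. Without the 3 animals of opposite wall difference 18 pairs were called, and Msln with Krt8 in Spt was not (r = 0.454, permutation adjusted p = 0.090).

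Msln and Krt19 varied together, with r = 0.983 in RV (rho = 0.980) and r = 0.963 in LV (rho = 0.957), each with p = 1e-05 by permutation, the smallest that these resamples can give (adjusted p = 4.1e-05). In Spt r was 0.593 (rho = 0.639, permutation p = 0.00044, adjusted p = 0.0015). Leaving out the 2 libraries farthest from the median of Msln gave r = 0.980 in RV, 0.946 in LV and 0.566 in Spt. Within library series, r in the walls was 0.945 to 0.999, over 6, 21 and 6 libraries each, and in Spt it was 0.183 over 6 libraries of series 2 and 0.694 over 27 of series 3. Over the 21 libraries of series 2, r was 0.945 in LV and 0.968 in RV. In a series of 6, each condition holds 2 libraries whose deviations mirror each other, so r there rests on 1 value per condition. Krt8 correlated with Krt18 at r = 0.856 in RV (rho = 0.848) and 0.764 in LV (rho = 0.722), both with permutation p of at most 6e-05, and at 0.699 to 0.991 within the series. Over the 21 libraries of series 2 it was 0.854 in RV and 0.699 in LV. Without the 2 libraries farthest from the median of Krt8, r was 0.836 in RV and 0.714 in LV. In Spt, where Krt18 was near the floor, their r was 0.305 (rho = 0.299, permutation p = 0.129, adjusted p = 0.253). Aldh1a2 correlated with Msln (r = 0.520), Krt8 (0.530), Krt18 (0.492) and Krt19 (0.516) in RV, with permutation p between 0.0039 and 0.0136 and adjusted p between 0.013 and 0.033. Spearman's rho was 0.462 to 0.513 for these pairs, r within the series was 0.454 to 0.986 (0.533 to 0.588 in series 2), and r without the 2 farthest libraries was 0.493 to 0.515. Without the 3 animals of opposite wall difference these pairs kept their call by r. By rho, Aldh1a2 with Msln had a permutation adjusted p of 0.044 there. With Krt8, Krt18 and Krt19 rho was 0.406, 0.401 and 0.449, not called (permutation adjusted p = 0.094, 0.070 and 0.064). Whether these correlations differ between chambers was not tested. Wt1 was not called with any other member in any chamber, with r between -0.253 and 0.328 and a lowest adjusted p of 0.219 by permutation.

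**Figure D4:**
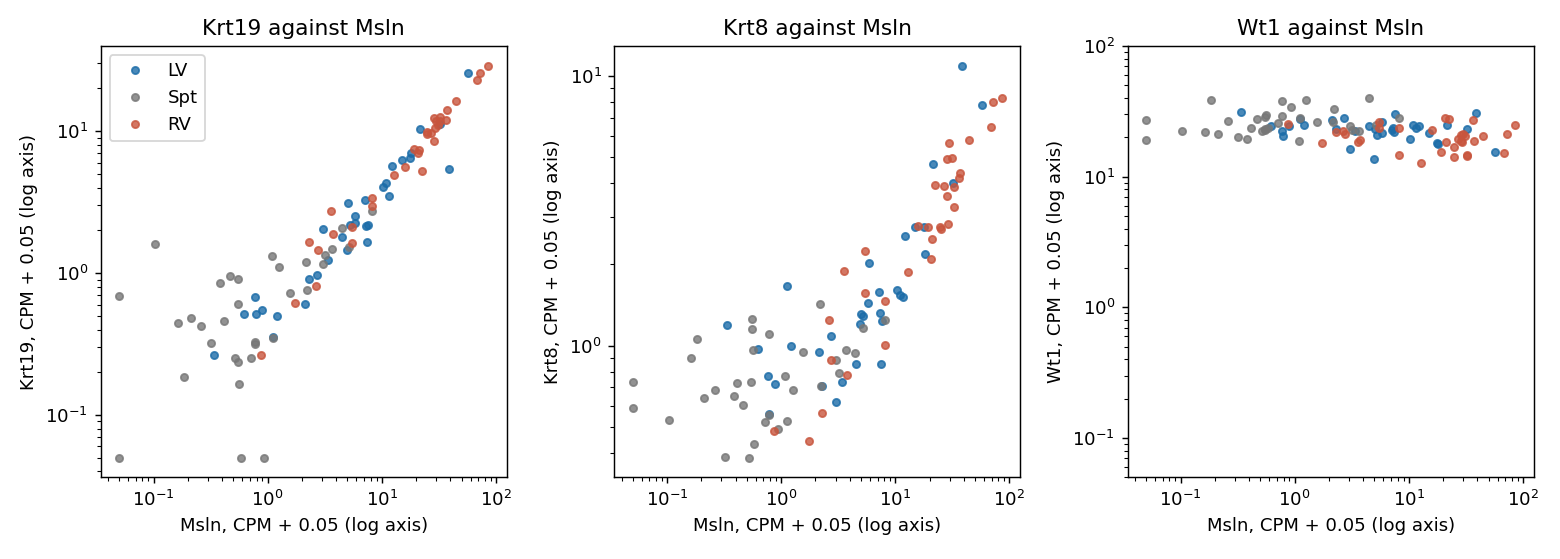
Krt19, Krt8 and Wt1 against Msln in the 99 libraries, as CPM + 0.05 with log axes. Points are libraries of LV (blue), Spt (grey) and RV (red). Krt19 follows Msln closely in the walls and more loosely in Spt. For deviations from the condition mean, r was 0.983 in RV, 0.963 in LV and 0.593 in Spt. Krt8 follows Msln in the walls, and Wt1 stays within 12.6 to 40.0 CPM at every level of Msln.

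Libraries with high levels were largely shared. The 10 libraries with most Msln, 8 of RV and 2 of LV, held 9 of the 10 with most Krt19, 6 of the 10 with most Krt8 and 5 of the 10 with most Krt18. At the top stood AOB-H RV replicate 3 with 86.1 CPM of Msln, Sham-H RV replicate 7 with 72.3, AOB-H RV replicate 2 with 68.7 and PAB-H LV replicate 2 with 57.4 CPM. Sham and banded animals were both among them. The summed level of 6 atrial cardiomyocyte markers was 246 to 2098 CPM (median 567) in these 10 libraries and 148 to 2169 CPM (median 231) in the other 56 wall libraries. Of these markers Bmp10 was at 0 reads in 70 of the 99 libraries, and its highest value was 78.8 CPM. Dkk3 (median 161 CPM) and Stard10 (median 39.9 CPM) were present in every library and hold most of a low sum. Myl7 (1.03 to 1131 CPM), Myl4 (1.48 to 453 CPM) and Sln (0.201 to 305 CPM) varied far more. For 6 lung and airway markers the medians were 12.1 and 11.3 CPM, with Sftpc, Sftpb and Sftpa1 at a median of 0 CPM over all libraries. Most of the lung sum came from Ager (median 8.75 CPM) and Napsa (median 2.33 CPM). Sums of the fibroblast (2258 and 2401 CPM), endothelial (753 and 784 CPM), macrophage (144 and 165 CPM) and cardiomyocyte (66433 and 60400 CPM) markers differed less between the 10 and the other wall libraries. None of these sums was matched by chamber, and 8 of the 10 libraries were of RV. Over all animals the medians in RV and LV were 2222 and 2494 CPM for fibroblast and 788 and 769 CPM for endothelial markers. For macrophage markers they were 146 and 171 CPM, and for cardiomyocyte markers 65649 and 56865 CPM. The part of these cell types in the Msln level was not tested.

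The genes most like each member were taken by the correlation of deviations from the 21 group means over the 99 libraries, as a description. For Msln they were Wfdc21 (r = 0.863), a small protein of the whey acidic protein family, Krt19 (0.829) and the uroplakin Upk1b (0.825). Krt19 was followed by Scel (0.836), an envelope protein of stratified epithelia, then Wfdc21 (0.830) and Msln. Krt8 came closest to the complement genes C4a (0.854) and Cfb (0.796) and to Upk1b (0.815). Krt18 had Upk1b (0.707), Krt8 (0.704) and C4a (0.691) nearest. C4a has a near-identical copy, C4b, so its counts are uncertain. Wt1 had other neighbours, Vegfc (0.803), a growth factor for lymphatic vessels, Plekhg5 (0.753) and Elk3 (0.740), an ETS factor known from vessels. Aldh1a2 had no close neighbour, with Arhgap30 (0.573), Dse (0.561) and Ephb2 (0.551) in front. With other members Wt1 had r between -0.15 and 0.02 over the 99 libraries.

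Other genes of these pathways were read from lists chosen with results of these data known. In the mesothelial list, 17 of 20 genes were in the table, 13 were tested, and in walls minus Spt 8 were higher and 1 lower, with a median log2 fold change of 0.43 beside 0.0031 over all genes, of which 13.7% were called. Over the 12 tested in the 9 animals with 1 series the median was 0.28, and Upk1b (3.48 ± 0.74, adjusted p = 0.043, edgeR) and Nkain4 (1.81 ± 0.41, adjusted p = 0.0498) were called. Upk1b differed most (2.87 ± 0.51), from a median of 0.226 CPM in Spt to 1.24 in LV and 4.45 in RV, followed by Nkain4 (1.89 ± 0.26), Cdh1 (0.75 ± 0.22), an epithelial adhesion protein, Rspo1 (0.70 ± 0.08), a Wnt agonist, and Gpm6a (0.59 ± 0.11). Cldn15, Pdpn and Slpi were higher by 0.43 to 0.44, and Lgals7 was lower (-0.35 ± 0.12), a call kept in 24 of 33 fits without 1 animal. Cdh1 and Cldn15 were not called without Sham-RF replicate 1 (adjusted p = 0.27 and 0.080, edgeR), and Slpi (adjusted p = 0.19) and Cdh1 (adjusted p = 0.17) not with the library series as a covariate. Bnc1, a mesothelial transcription factor, had a median of 0 CPM, and Upk3b, Lrrn4 and Muc16 were not analysed here, so the label rests on Msln, Upk1b and the keratins.

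In the epicardial list, which holds transcription and signalling genes, 15 of 16 genes were tested and 2 were called, a share of 13.3% beside the 13.7% of all genes. Tcf21, a factor of epicardium-derived fibroblasts, was higher in the walls (0.34 ± 0.05), with medians of 37.2 CPM in LV, 29.2 in Spt and 36.7 in RV, but by 0.09 ± 0.07 in the 9 animals with 1 series, where it was not called (adjusted p = 0.48, edgeR). Sema3d, a guidance cue of the epicardium, was lower (-0.59 ± 0.16), with 9.76, 9.77 and 5.25 CPM, and it was not called with the library series as a covariate (-0.33 ± 0.13, adjusted p = 0.10, edgeR) or in the 9 animals (-0.16 ± 0.16, adjusted p = 0.58). The remaining 13, Tbx18 and Gata4 among them, did not pass, and the list's median was 0.01. Of 16 tested genes of the retinoic acid pathway 3 (18.8%, beside 7.71% of all genes) were higher, the dehydrogenase Dhrs9 (1.62 ± 0.42), the retinol carrier Rbp4 (1.16 ± 0.33) and Aldh1a1 (0.23 ± 0.04), an isoenzyme of Aldh1a2, and 0 lower. In CPM, Aldh1a1 had medians of 171 in LV, 163 in Spt and 193 in RV, and Dhrs9 stayed at or under 0.400 in each chamber. Aldh1a1 had -0.0056 ± 0.062 in the 9 animals with 1 library series, and Rbp4 was not called with series as a covariate (adjusted p = 0.35). Dhrs9 had 2.12 ± 0.66 and Rbp4 0.65 ± 0.47 in these animals, where 0 of 15 genes of the list were called and 2 had an unadjusted p under 0.05, and Dhrs9 was not called without Sham-RF replicate 1 (adjusted p = 0.051, edgeR). Of 6 tested keratin partners and junction genes Ppl (0.50 ± 0.10) and Evpl (0.40 ± 0.14), both plakins that link keratins to desmosomes, were higher, with 0.35 ± 0.10 and 0.74 ± 0.23 in the 9 animals, where neither was called. Evpl kept its call in 19 of 33 fits without 1 animal and lost it with series as a covariate (adjusted p = 0.19, edgeR). The other 7 of the 13 in the table did not pass the filter on low counts.

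Markers of other cell types were read in the same comparison, in which 7.71% of all genes were higher and 5.96% lower. All 5 tested fibroblast markers were higher in the walls by 0.14 to 0.35, 3 of 4 macrophage markers by 0.24 to 0.31, 3 of 6 adipocyte markers and 1 of 6 atrial markers were higher, and 0 of 4 smooth muscle and 0 of 4 lung markers were called. Of 6 endothelial markers 2 were higher and 3 lower, and of 5 cardiomyocyte markers 1 was lower. Counts of 1 in 6 or 1 in 5 are near the share over all genes. In the 9 animals with 1 series 0 of 5 fibroblast and 0 of 4 macrophage markers were called by edgeR (4 and 0 with an unadjusted p under 0.05), and their differences were not all in the same direction: 3 of the 5 fibroblast markers were lower in the walls there (Dcn -0.23 ± 0.07, Lum -0.13 ± 0.09, Dpt -0.16 ± 0.07), as were 2 of the 3 macrophage markers (C1qa -0.21 ± 0.11, Adgre1 -0.02 ± 0.10). Of the 3 adipocyte markers Cfd was lower there (-0.16 ± 0.10), and the atrial marker Dkk3 had 0.31 ± 0.08 (adjusted p = 0.064, edgeR). Summed over the list, fibroblast markers reached 1974 to 3267 CPM in LV, 1536 to 2903 in Spt and 1586 to 2947 in RV, and adipocyte markers 13.3 to 40.3, 10.1 to 32.0 and 11.2 to 38.3 CPM. Most of the adipocyte sum came from Cfd (median 17.2 CPM over all libraries). The part of these cells in the members' difference was not tested.

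The second question was whether banding changed the genes. No member was called in any of the 12 comparisons of a banding group with its own sham in LV, Spt or RV. In these, 98 genes (0.837%) were called in LV of AOB-F and 27 (0.232%) in Spt of AOB-F, and 0 in each of the other 10 by edgeR, where 110 to 1851 genes had an unadjusted p under 0.05. Of 68 tests of members, 1 reached an unadjusted p under 0.05, Krt18 in LV of AOB-F. Krt18 was not tested in Spt, where it did not pass the filter.

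In the RV loaded by PAB, Msln had 1.69, 5.41 and 44.6 CPM as lowest, median and highest value in PAB-H against 0.823, 25.0 and 72.3 CPM in Sham-H. The groups overlapped over nearly their whole range, and the difference was -0.91 ± 0.75 on the log2 scale (95% interval -2.38 to 0.56, adjusted p = 1.00, edgeR). Without Sham-H replicate 6 and PAB-H replicate 2, whose walls differed against their labels, the ranges were 1.69 to 44.6 and 2.69 to 72.3 CPM, and with AOB-H replicate 1 also left out of the fit the difference was -0.99 ± 0.71. At the failure stage the 3 PAB-F animals had 36.3, 8.12 and 29.7 CPM in RV and the 2 Sham-RF animals 28.5 and 19.2 CPM (0.05 ± 1.27). Krt19 in the same libraries had 11.9, 3.32 and 11.7 CPM against 8.53 and 7.48 CPM (0.16 ± 1.22). Aldh1a2 in RV had 5.31, 8.24 and 8.61 CPM in PAB-F and 5.37 and 4.79 CPM in Sham-RF (0.54 ± 0.37, adjusted p = 0.70, edgeR).

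In the LV loaded by AOB, Msln had 0.719, 5.79 and 17.7 CPM as lowest, median and highest value in AOB-H and 2.99, 10.3 and 32.3 CPM in Sham-H (-0.70 ± 0.82, and -0.51 ± 0.82 without the 3 animals). In AOB-F the 4 animals had 1.07, 2.68, 4.45 and 38.5 CPM, and the 3 Sham-LF animals 1.17, 2.08 and 7.13 CPM (1.75 ± 1.27, adjusted p = 0.68, edgeR). A single animal, replicate 4, stood above the rest, and without it the difference was -0.33 ± 1.27. Its library also had the highest fibroblast sum of the 33 in LV (3267 CPM, median 2494), the 2nd highest macrophage sum (318 CPM, median 171), the 3rd highest atrial sum (785 CPM, median 221) and the 2nd lowest cardiomyocyte sum (42669 CPM, median 56865), and their part in its Msln level was not tested. The same animal led for Krt8, with 1.61, 1.04, 0.804 and 10.9 CPM in AOB-F against 0.945, 0.900 and 1.53 CPM in Sham-LF (1.65 ± 0.87, adjusted p = 0.44, and 0.0065 ± 0.85 without replicate 4). For Krt18 the 4 AOB-F libraries held 14, 3, 3 and 38 reads and the 3 Sham-LF libraries 1, 0 and 3. With Sham-LF set at the floor of 3 reads per library, the AOB-F mean was 5.46-fold that level, and 2.58-fold without replicate 4. These ratios allow for counting error in Sham-LF and not for the spread between animals. As 2 of the AOB-F libraries also held 3 reads, the ratio without replicate 4 rests on replicate 1. The fitted value, 3.52 ± 1.19, depends on the prior count and was not called (adjusted p = 0.15, edgeR). Without replicate 4 it was 2.40 ± 1.26 (adjusted p = 0.70, edgeR). Leaving out AOB-F replicate 3, with 3 reads, gave an adjusted p of 0.046.

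**Figure D5:**
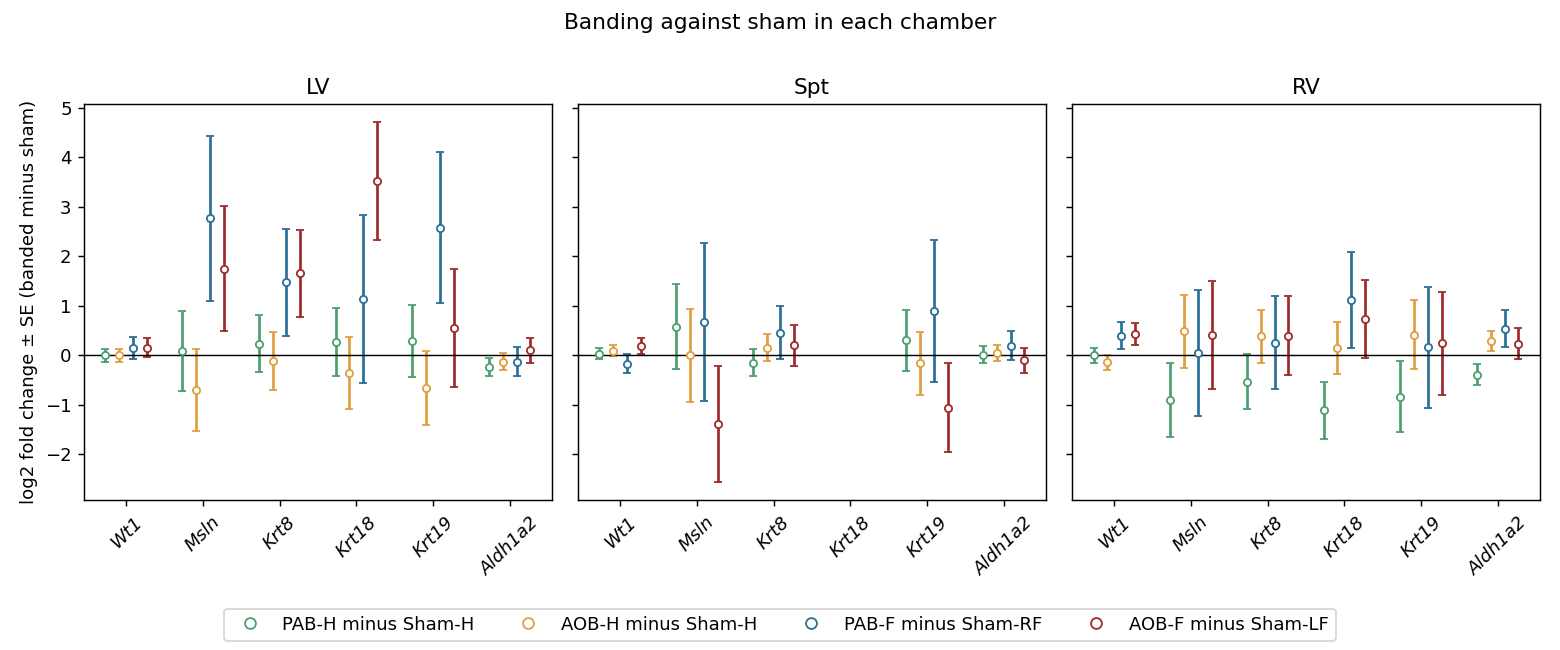
Log2 fold change ± SE of banded against own sham animals for each gene in LV, Spt and RV. Colours are the 4 comparisons, and open points are not called. Krt18 is missing in Spt, where it was not tested. Points of Wt1 and Aldh1a2 lie within -0.40 and 0.54 of 0, while those of Msln, Krt18 and Krt19 range from -1.40 to 3.52 with wide errors.

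The precision of these 12 comparisons differed between the genes. Log2 fold changes ranged from -0.17 to 0.43 for Wt1 (SE 0.11 to 0.26) and from -0.40 to 0.54 for Aldh1a2 (SE 0.16 to 0.37). Those of Msln ranged from -1.40 to 2.76 (SE 0.74 to 1.66), of Krt19 from -1.06 to 2.58 (SE 0.61 to 1.53), of Krt8 from -0.53 to 1.65 (SE 0.27 to 1.09) and of Krt18, in 8 comparisons, from -1.11 to 3.52 (SE 0.52 to 1.70). A change of Msln or Krt19 as large as that between chambers was therefore not always detectable. In LV of PAB-F, for example, Msln had 0.286, 7.38 and 21.6 CPM against 2.23 and 0.576 CPM in Sham-RF, a difference of 2.76 ± 1.66 (adjusted p = 1.00, edgeR). In LV of PAB-H, leaving out the 3 animals of opposite wall difference turned the sign for Msln (0.08 ± 0.81 to -0.94 ± 0.83), Krt19 (0.28 ± 0.73 to -0.81 ± 0.71), Krt8 and Krt18, and no member was called either way.

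Nor was the excess in the walls called as different with banding. The difference of walls minus Spt between banded animals and shams was 0.52 ± 0.86 for Msln, 0.35 ± 0.84 for Krt19, 0.30 ± 0.52 for Krt8, 0.81 ± 0.71 for Krt18, -0.0047 ± 0.17 for Aldh1a2 and 0.08 ± 0.12 for Wt1 on the log2 scale, with adjusted p = 1.00 for each (edgeR). Of all 11924 genes, 0 were called and 128 (1.07%) had an unadjusted p under 0.05. In single conditions, the mean of LV exceeded that of Spt for Msln, Krt8, Krt19 and Aldh1a2 in 7 of 7 conditions, and so did that of RV.

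Older and younger sham animals were compared in the same fits, as the mean of Sham-RF and Sham-LF minus Sham-H. No member was called, and Msln and Krt19 in LV and Wt1 in Spt alone had an unadjusted p under 0.05, with 2 genes (0.0171%) called in LV, 12 (0.103%) in Spt and 10 (0.0852%) in RV. In LV, Msln had 0.576 to 2.23 CPM in Sham-RF and 1.17 to 7.13 CPM in Sham-LF against 2.99 to 32.3 CPM in Sham-H, a difference of -2.50 ± 1.05 (adjusted p = 0.64, edgeR). Krt19 differed there by -2.26 ± 0.96 (adjusted p = 0.64). Within library series 2, which holds the older shams and 3 of the 7 Sham-H animals, these differences were -1.25 ± 1.04 and -1.10 ± 0.93, and without the 3 animals of opposite wall difference -2.39 ± 0.99 and -2.14 ± 0.86, not called. Wt1 in Spt had medians of 23.6 CPM in Sham-H, 26.7 in Sham-RF and 33.8 in Sham-LF (0.31 ± 0.12, adjusted p = 0.21, edgeR), and without Sham-LF replicate 3 its adjusted p was 0.032.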

How the data were processed

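RNA of LV, Spt and RV from 33 rats was measured in 99 libraries made with a directional kit. Trim Galore was used by the authors to trim the single-end reads, STAR to map them to Rnor6.0 (UCSC annotation) and featureCounts, without multiple overlaps, to count them per gene. The strand setting is not given in the sources used here. The deposited counts are whole numbers without normalization. The deposited normalized counts, a signal on a linear scale, are counts divided by the size factors of DESeq2, and the deposited FPKM values divide these by a constant per gene, its length. FPKM served only to compare levels between genes. Total counts were 12.1 to 24.2 M (mega) per library, and limits from low counts cover counting error only.

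Groups follow the labels. The tissue field of RV samples names the left ventricle, and their title was followed. The RV column of Sham-LF replicate 1 is named after another group, and in AOB-F, replicates 1 and 2 have their Spt columns exchanged in a sample sheet. The 7 members and the lists were chosen with earlier results of these data known. Named genes are the members, list genes called in walls minus Spt (up to 10 per list) and the 3 genes most correlated with each member, without symbols starting with LOC, RGD or Mir.

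Tests used edgeR 4.0.16 (R 4.3.3; quasi-likelihood, TMM, filterByExpr, Benjamini-Hochberg, threshold 0.05), in 1 fit of 99 libraries and 21 groups between chambers, and in 1 fit of 33 libraries per chamber for banding and age. The scripts were tested on simulated data. Alternatives were RLE scaling, no filter, library series as a covariate or within series, 1 fit of all libraries, DESeq2 1.42.0, blocks by animal or replicate number, and each animal left out. Correlations without the 3 animals of opposite wall difference were added after seeing the data. The same animal pairs the chambers: correlations of deviations exceeded 0.1 in 18 of 33 animals for LV and Spt, 26 for LV and RV and 20 for Spt and RV. CPM used TMM scaling, log2 CPM a prior count of 0.5.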

Additional observations from a re-analysis of the deposited data

Results flagged for a closer look

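Among 72 sets of 4 to 10 libraries of 1 group and 1 member, 11 had a highest or lowest library whose gap to the next took an unusual share of the group's range; 9 of these were high, and these came from 5 libraries. By chance about 1 in 20 sets would be singled out if values were normally distributed and sets independent. Neither holds here, since levels of Msln and the keratins were skewed to high values and members were correlated. The number of flags was therefore not set against a chance rate.

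PAB-H LV replicate 2 stood apart in 5 members, with 57.4 CPM of Msln (next 15.0), 25.8 CPM of Krt19 (next 6.17), 7.73 CPM of Krt8 (next 2.70) and 1.22 CPM of Krt18 (next 0.496), and with the lowest Wt1, 15.5 CPM (next 20.5). This animal is one of the 3 whose LV and RV libraries differ against their labels, and its library had the 2nd highest atrial marker sum of the 33 in LV (1197 CPM, median 221), the highest cardiomyocyte sum (75297 CPM, median 56865) and the 2nd lowest endothelial sum (616 CPM, median 769). AOB-F LV replicate 4 had 38.5 CPM of Msln (next 4.45) and 10.9 CPM of Krt8 (next 1.61), with the highest fibroblast sum in LV (3267 CPM, median 2494), the 2nd highest macrophage sum (318 CPM) and the 2nd lowest cardiomyocyte sum (42669 CPM). The part of these cells in the values was not tested.

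In Spt, PAB-H replicate 3 had 8.08 CPM of Msln (next 1.52) and AOB-H replicate 7 had 5.16 CPM (next 0.515). AOB-H Spt replicate 3 had 5.56 CPM of Aldh1a2 (next 3.71). AOB-F Spt replicate 2 had the lowest Wt1 of its group, 32.7 CPM (next 37.9), and is one of the 2 libraries whose animal a sample sheet gives differently.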

How the results depend on the processing

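Counts of members called kept within 1.5 times in 160 of 166 alternatives, and single fold changes kept direction and call in 343 of 394. Most of the 166 belong to comparisons by banding or age, where no member was called in the main fit and 0 against 0 counted as kept. The 6 that moved were all comparisons between chambers. In the 9 animals with 1 library series, blocked by animal, the members called were 1 in walls minus Spt (106 genes called in place of 1630), 0 in shams, 0 in LV minus Spt, 3 in RV minus Spt and 0 in RV minus LV; fewer animals entered. There Aldh1a2 in RV minus LV was 0.071 and Aldh1a1 in walls minus Spt was -0.0056, both turned in sign, and the cause was not tested. With series as a covariate 2 members were called in shams. Blocking all 33 animals (replicate block by animal) called 2471 genes and 6 members in walls minus Spt, and 5 members in shams; beyond Krt8 there and Wt1 in LV minus Spt it changed no member's call. Leaving out 1 animal moved the members called between 1 and 5 in shams, 2 and 5 in LV minus Spt and 3 and 5 in RV minus LV (3 without Sham-RF replicate 1), and between 0 and 1 in LV of AOB-F and in Spt of older shams. Same-numbered compensated animals share a library series; in LV and RV 6 of 7 such pairs correlated above 0.1 in each comparison (mean 0.26 to 0.37), other pairs within a series by 0.23 to 0.30 and pairs between series by -0.15 to -0.12. Not every pair passed 0.1, so the number was not taken as a pairing; the block by number called no member (Krt18 in LV of AOB-F, 3.23, adjusted p = 0.27). Evpl and Lgals7 kept their call in 19 and 24 of 33 fits without 1 animal. Library depth limits Krt18.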

Other observations

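Vessel markers differed in both directions between walls and Spt. Plvap, a protein of fenestrated endothelium, was higher in the walls by 0.92 ± 0.11 on the log2 scale (adjusted p = 1.7e-09, edgeR) and Vwf by 0.28 ± 0.07, whereas Kdr (-0.29 ± 0.06), Cdh5 (-0.40 ± 0.12) and Pecam1 (-0.13 ± 0.05) were lower. In the 9 animals with 1 library series Plvap was higher by 0.75 ± 0.13 (adjusted p = 0.014, edgeR), and Vwf (0.25 ± 0.10), Kdr (-0.11 ± 0.06), Pecam1 (-0.12 ± 0.07) and Cdh5 (0.08 ± 0.16) were not called. Wt1 was lower as well (-0.31 ± 0.06), with -0.18 ± 0.07 in the 9 animals, where it was not called (adjusted p = 0.18, edgeR). Its relation to the vessel markers was not tested. Of the adipocyte markers Adipoq, a hormone of fat cells, was higher in the walls by 2.24 ± 0.62, with a median of 0.177 CPM over the 99 libraries and 0 reads in 19, and Cfd by 0.45 ± 0.08; in the 9 animals these were 2.12 ± 0.82 and -0.16 ± 0.10, not called. Col1a1 in Spt of older against younger shams (-0.83 ± 0.18, adjusted p = 0.046) was the only gene of the lists and markers called in a banding or age comparison.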
